A study of Rattus norvegicus with 12 samples.

Results

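The genes described here are those whose RNA level separated all 6 libraries of rat H9c2 cells that had received folic acid (FA) from all 6 that had not. The series held 12 libraries of polyadenylated RNA, 3 in each of 4 groups. The groups were cells given FA alone, cells given FA together with methylmalonic acid (MMA+FA), untreated control cells, and cells given methylmalonic acid alone (MMA). The FA and MMA+FA libraries were set against the control and MMA libraries, so MMA was present in 3 libraries on each side, and its presence was a term in the model. All 4 groups are the H9c2 line with no genetic change named in the labels. Neither the dose of FA or MMA nor the time of exposure is stated in the sources used here. Nothing in the labels says that the 3 libraries of a group came from separate cultures. The p-values therefore measure only the spread between these samples, which may be technical. Of 30562 genes in the table, 12263 had a mean of at least 1 TPM (transcripts counted per fixed total of the library, scaled by gene length) and were tested. In 492 of these the 6 libraries with FA did not overlap the 6 without, 185 of them higher with FA and 307 lower.

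Folic acid is the synthetic, oxidised form of folate. Cells take up folates through carriers such as the one encoded by Slc19a1, reduce them, and use them to carry the one-carbon units needed for nucleotide synthesis and for remaking methionine. Methylmalonic acid builds up where methylmalonyl-CoA mutase, a cobalamin-dependent mitochondrial enzyme of propionate breakdown, works poorly. H9c2 is a line derived from embryonic rat heart that grows as myoblasts and can be driven towards skeletal or cardiac muscle features, and its labels call it cardiomyocytes.

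The cells carried few transcripts of mature cardiomyocytes. Of 12 cardiomyocyte markers, 11 were in the table and 1, the transcription factor gene Nkx2-5, reached the mean of 1 TPM. Myh6, Myh7, Myl2, Myl7, Nppa, Nppb and Ryr2 each had a mean under 0.1 TPM. Skeletal myoblast markers summed to 171 to 264 TPM with FA and 205 to 236 TPM without, most of it Cdh15 (118 to 170.9 TPM with FA and 123.5 to 138.2 TPM without). Myod1 lay at 28.2 to 61.2 TPM with FA and 59.0 to 74.2 TPM without. Myog, which moved the other way, lay at 17.3 to 22.2 TPM with FA and 13.4 to 17.95 TPM without. Myf5 and Pax7 were also under 0.1 TPM. Smooth muscle markers were abundant, with a summed level of 8015 to 9218 TPM with FA and 7085 to 8228 TPM without, and so were fibroblast and mesenchymal markers, although Fap and Tcf21 were listed at 0. Of the latter markers, Dcn averaged 0.187 TPM with FA and 0.308 TPM without, and Pdgfra 0.115 and 0.09 TPM. Markers of leukocytes summed to 11.8 to 13.8 TPM with FA and 11.2 to 14.4 TPM without, mostly from Cd14, and Ptprc was under 0.1 TPM. Of the endothelial markers 7 of 10 were under 0.1 TPM, and their sum of 8.97 to 10.8 TPM with FA and 8.23 to 8.83 TPM without came mostly from Flt1. Epithelial markers summed to 26.8 to 33.9 TPM with FA and 19.8 to 26.2 TPM without, nearly all of it Krt8, while Epcam, Cdh1 and Krt18 were under 0.1 TPM. The fibroblast and mesenchymal markers summed to 12045 to 14852 TPM with FA and 11288 to 12949 TPM without. The part of these markers in the differences below was not tested. In bulk RNA, fewer cells of a type and less RNA per cell cannot be told apart.

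TPM keeps no record of how many reads were sequenced, and the depth behind each value is therefore unknown. The 100 most abundant genes took 37.2 ± 0.709% of the total with FA and 36.1 ± 0.938% without (SD, n = 6 each). This difference had an exact two-sided permutation p of 0.005, the smallest that exchanging FA labels within the MMA strata allows. Mitochondrially encoded genes took 10.1 ± 0.858% with FA and 10.2 ± 0.775% without (exact permutation p = 0.775). A pair of near-identical ubiquitin loci, Ubb-ps1 and Ubbl2, took 4.46 ± 0.708% with FA and 3.51 ± 0.411% without (exact permutation p = 0.025, and 0.055 at the highest when 1 library was left out). Reads of these loci are hard to place. TPM sums to a fixed total. Leaving out these loci together with the mitochondrially encoded genes, and rescaling, gave 764 higher and 1563 lower genes in limma, against 646 and 1918 as deposited. The part of the ubiquitin loci alone in the smaller values of other genes was not tested. For this reason the counts of called list members are also given after median-ratio scaling, where the typical gene has a difference of 0.

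In limma, 2564 of the 12263 genes (20.9%) had an adjusted p under 0.05 for FA, with 646 of them higher (5.27%) and 1918 lower (15.6%). After median-ratio scaling 2151 were called (17.5%), and 1155 of these were higher (9.42%) and 996 lower (8.12%). Without adjustment 4406 genes (35.9%) had a p under 0.05. Of the called genes, 2 were higher (0.0163%) and 9 lower (0.0734%) by at least 2-fold. The count fell to 1676 without MMA replicate 1 and 1689 without MMA replicate 2, and was 1815 to 3039 without any other library. The 492 genes without overlap were 4.01% of the tested genes (1.51% higher and 2.5% lower), and 482 of them were also called by limma. The median difference over all tested genes was -0.04 on the log2(TPM + 1) scale, the scale of every log2 difference below, which understates differences of low genes. Leaving out MMA replicate 3 raised the genes without overlap to 327 higher and 802 lower, and leaving out FA replicate 2 to 308 higher and 576 lower. Without any other library they were 189 to 256 higher and 328 to 416 lower. Fewer libraries make overlap rarer by construction, and why the rise was larger for those 2 libraries was not tested.

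The genes without overlap moved by little. Their median absolute log2 difference was 0.26, against 0.09 over all tested genes, and 231 of the 492 moved by under 0.25. A difference of at least 0.5 was found in 47, of which 18 were higher and 29 lower. Protein-coding genes made up 469 of the 492 (95.3%, against 93.3% of the tested genes), and 19 were long noncoding RNAs. Their median level was 29.5 TPM, against 19.8 TPM over all tested genes. Under median-ratio scaling 431 of the 492 were called. All 492 kept their direction there, but this scaling moved the median over all tested genes only from -0.04 to about 0. The smallest differences in the set, 0.08 higher and -0.06 lower, were larger than that, so a change of direction was hardly possible. The boundary of the set is narrow. Just inside it, Erf, a transcriptional repressor of the ETS family, lay at 34.8 to 44.3 TPM with FA, against 44.4 to 49.5 TPM without. Just outside it, Parp6, which encodes a mono-ADP-ribosyltransferase, lay at 23.03 to 26.3 TPM with FA, against 26.3 to 29.1 TPM without.

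The largest gain among these genes was in cardiac troponin T, and other contractile genes of striated muscle were higher as well. Of 26 tested genes of the sarcomere and striated muscle, 13 were higher and 2 lower (median log2 difference 0.22), against 5.27% higher and 15.6% lower over all tested genes. Of these, 9 were higher and 1 lower without overlap, against 1.51% and 2.5% of all tested genes. Under median-ratio scaling 15 were higher and 1 lower, against 9.42% and 8.12% of all tested genes.

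Tnnt2 (ENSRNOG00000033734), the troponin subunit that ties the troponin complex to tropomyosin, stood at 43.8, 47.1 and 42.4 TPM with FA and 84.6, 67.5 and 68.7 TPM with MMA+FA, against 15.02, 18.9 and 14.5 TPM in control cells and 22.7, 19.7 and 21.9 TPM with MMA. Every library with FA lay above every library without it, and the MMA+FA libraries lay highest (log2 difference 1.57, SE 0.08, adjusted p = 2.89e-07 in limma). Acta1 (ENSRNOG00000017786), the skeletal alpha-actin gene, stood at 6.37, 6.01 and 5.18 TPM with FA and 10.4, 7.93 and 9.39 TPM with MMA+FA, against 3.75, 3.87 and 3.69 TPM in control cells and 2.54, 3.43 and 3.18 TPM with MMA. All of its libraries with FA were again above those without, by a log2 difference of 1.34 in the presence of MMA and 0.52 in its absence (both strata together 0.93, SE 0.14, adjusted p = 0.000986). Myl4, the atrial and embryonic essential light chain of myosin, ranged from 7.05 to 11 TPM (median 8.64) in the 6 libraries with FA, against 4.61 to 6.62 TPM (median 5.71) in the 6 without (log2 difference 0.56, SE 0.07, adjusted p = 0.000481). Tnnc2, the calcium-binding troponin C of fast skeletal muscle, ranged from 46.4 to 63.7 TPM (median 53.8) in the 6 libraries with FA, against 32.4 to 42.1 TPM (median 40.6) in the 6 without, and its groups touched most closely between FA replicate 3 and control replicate 1 (log2 difference 0.51, SE 0.09, adjusted p = 0.00269). Trim63, a ubiquitin ligase of the sarcomere, rose by 0.44 with a larger difference in the presence of MMA (0.72) than in its absence (0.17, adjusted p = 0.0146 for the interaction in limma). Klhl40, a stabiliser of thin filament proteins, rose by 0.63 and the tropomyosin genes Tpm1 and Tpm2 by 0.22 and 0.21, all without overlap. Klhl40 was low, with a mean of 4.045 TPM with FA and 2.268 TPM without. Its groups barely separated, with FA replicate 3 at 2.95 TPM and MMA replicate 3 at 2.93 TPM. Ttn, which encodes the giant spring protein titin, differed by 0.34 without overlap but lay near the floor. It averaged 1.475 TPM with FA and 0.953 TPM without, so it passed the filter of 1 TPM only through the libraries with FA. Lmod3, a nucleator of thin filaments, rose by 0.69 but its groups overlapped, with 25.8, 22.8 and 20.96 TPM with FA and 35.8, 29.4 and 41.8 TPM with MMA+FA, against 15.6, 14.8 and 16.3 TPM in control cells and 19.03, 16.7 and 22.6 TPM with MMA. Nebl, the nebulin relative of heart muscle, went the other way and fell by 0.40 without overlap. It also lay near the floor, with a mean of 1.188 TPM with FA and 1.89 TPM without.

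**Figure D1:**
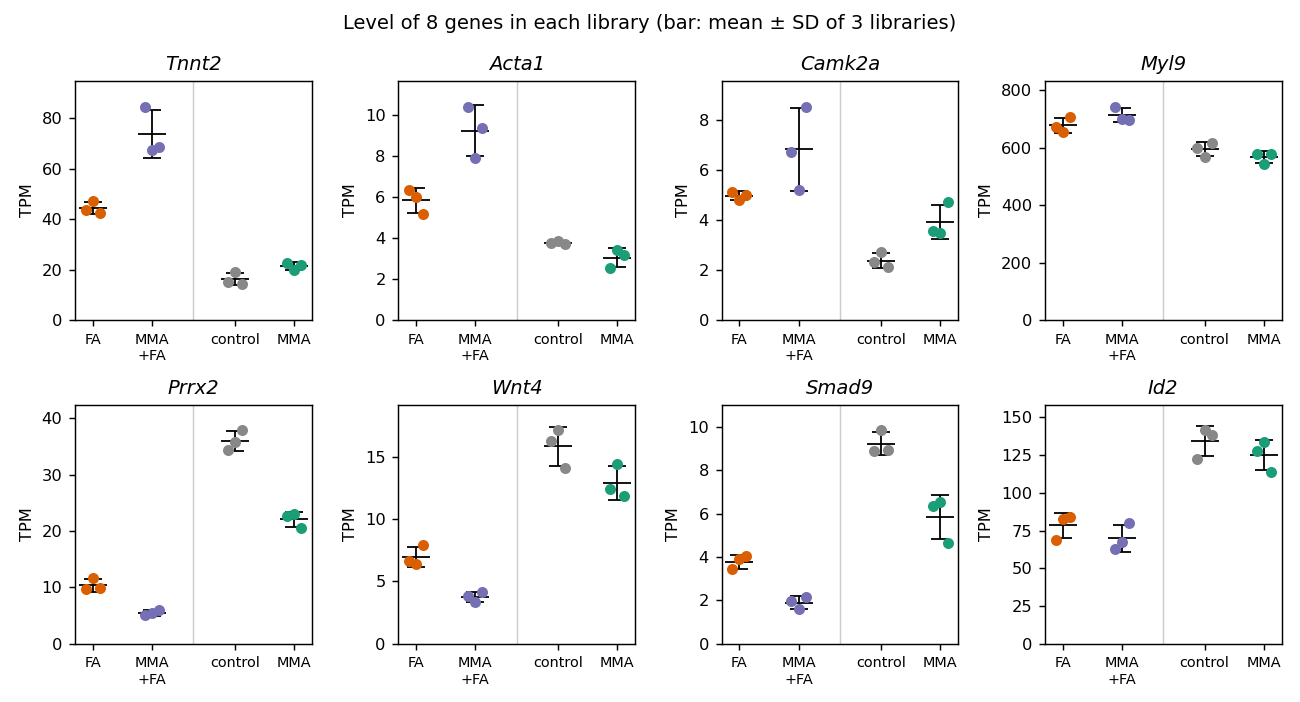
Level in TPM (vertical axis, from 0) of 8 genes in each of the 12 libraries, by group: FA, MMA+FA, control and MMA from left to right. Points are libraries and bars give the mean ± SD of 3. The 6 points left of the grey line do not overlap the 6 right of it in any panel, and Tnnt2 reaches 84.6 TPM in an MMA+FA library.

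The promoter of Acta1 is a standard example of muscle gene control by serum response factor, which binds the CArG box, and it is shown because Acta1 had the largest gain after Tnnt2 among the named genes. The 120 bases before its start are taken from RefSeq (build GRCr8), minus strand, chr19:68784195-68784314, written 5′ to 3′ with the CArG box in capitals.
Acta1: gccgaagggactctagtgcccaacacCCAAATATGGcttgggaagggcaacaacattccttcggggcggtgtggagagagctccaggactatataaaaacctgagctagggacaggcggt
The box lies 94 to 85 bases before the start. In windows of 250 bases before to 50 after the start, RefSeq held promoters for 134 of the 180 higher and 234 of the 297 lower symbols without overlap. Searched on both strands, a CArG box was present in 4 of these 134 (2.99%) and 3 of these 234 (1.28%), against 1.65% of all 24206 promoters and 1.28% of those of tested genes. The MCAT motif CATTCC, bound by TEAD factors, was in 17.2% of the higher and 9.4% of the lower promoters, against 11.1% of tested genes. The E-box CANNTG, bound by myogenic factors among others, was in 64.2% of the higher and 54.7% of the lower promoters, against 61.2% of tested genes. AP-1 sites (TGANTCA) were in 5.97% and 5.13%, against 4.65% of tested genes. These shares describe letters in the windows and were not tested.

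Smooth muscle contractile genes were higher with FA in 10 of 20 tested members and lower in 0 (median 0.14). Over all tested genes 5.27% were higher and 15.6% lower. Of the 10, 7 were without overlap, against 1.51% of all tested genes. Under median-ratio scaling 13 members were higher, against 9.42% of all tested genes. Myl9, the regulatory light chain of smooth muscle myosin, lay at 655 to 744 TPM (median 699) in the 6 libraries with FA, against 544 to 617 TPM (median 579) in the 6 without (log2 difference 0.26, SE 0.04, adjusted p = 0.000863). All 6 values with FA lay above all 6 without. Vcl, which encodes the adhesion linker vinculin, rose by 0.30, and by more with MMA (0.47) than without it (0.14, adjusted p = 0.0112 for the interaction). Lmod1, Actg2 and Cnn2 rose by 0.31, 0.20 and 0.18 without overlap. Acta2, smooth muscle alpha-actin and among the most abundant transcripts of these cells, rose by 0.30 but ranged from 4971 to 5912 TPM with FA and from 4278 to 5128 TPM without, so its groups overlapped. Gsn, which severs actin filaments, ranged from 141 to 179 TPM (median 161) in the 6 libraries with FA, against 105 to 135 TPM (median 116) in the 6 without (log2 difference 0.47, SE 0.05, adjusted p = 0.00012).

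Genes of calcium handling were called higher in 4 of 25 and lower in 1 (median 0.03), against 5.27% and 15.6% of all tested genes. Under median-ratio scaling the counts were 6 and 1, against 9.42% and 8.12%. Camk2a, the alpha chain of calcium/calmodulin-dependent kinase II, stood at 5.13, 4.8 and 5 TPM with FA and 6.72, 5.21 and 8.53 TPM with MMA+FA, against 2.31, 2.7 and 2.1 TPM in control cells and 3.54, 3.49 and 4.72 TPM with MMA. Its gain was 0.66 with MMA and 0.83 without it, and MMA replicate 3 was the library nearest to those with FA (log2 difference 0.74, SE 0.10, adjusted p = 0.000645). Casq2, the calcium store protein calsequestrin of heart muscle, rose by 0.24, and Jph2, which holds the sarcoplasmic reticulum to the surface membrane, by 0.31, both without overlap. The sodium-calcium exchanger gene Slc8a1 rose by 0.25 and the skeletal calcium channel gene Cacna1s fell by 0.31, both with overlap. Of 5 tested endothelin genes 2 were higher, against 5.27% of all tested genes, and also under median-ratio scaling, against 9.42%. Ednra, the type A receptor, ranged from 8.4 to 11.9 TPM (median 10.5) in the 6 libraries with FA, against 6.57 to 7.84 TPM (median 7.17) in the 6 without (log2 difference 0.47, SE 0.08, adjusted p = 0.00175), all 6 values with FA above all 6 without. The ligand gene Edn1 differed by 0.39 with overlap, by 0.08 with MMA and 0.71 without it. Its adjusted p of 0.0378 lost the call in 8 of the 12 fits that left out 1 library, with 0.0835 as the highest.

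Transcription factors of myogenesis did not move one way. Of 21 tested myogenic and cardiac factors, 4 were higher and 1 lower (median 0.07), against 5.27% and 15.6% of all tested genes. None of the 21 was free of overlap, against 4.01% of all tested genes. Under median-ratio scaling 7 were higher and 1 lower, against 9.42% and 8.12% of all tested genes. Without FA replicate 2 there were 7 higher, and without control replicate 2 there were 3 lower. Myod1, which commits cells to the muscle lineage, stood at 58.6, 45.7 and 61.2 TPM with FA and 34.7, 28.2 and 32.3 TPM with MMA+FA, against 74.2, 74.1 and 69.7 TPM in control cells and 58.98, 59.5 and 61.4 TPM with MMA. The MMA+FA libraries were lowest, and the FA libraries overlapped those with MMA (log2 difference -0.65, SE 0.10, adjusted p = 0.00102). Myog, which acts later in myoblast differentiation, rose by 0.39, with differences of 0.36 with MMA and 0.42 without it, and Mef2c and Gata6 rose by 0.27 and 0.20.

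**Figure D2:**
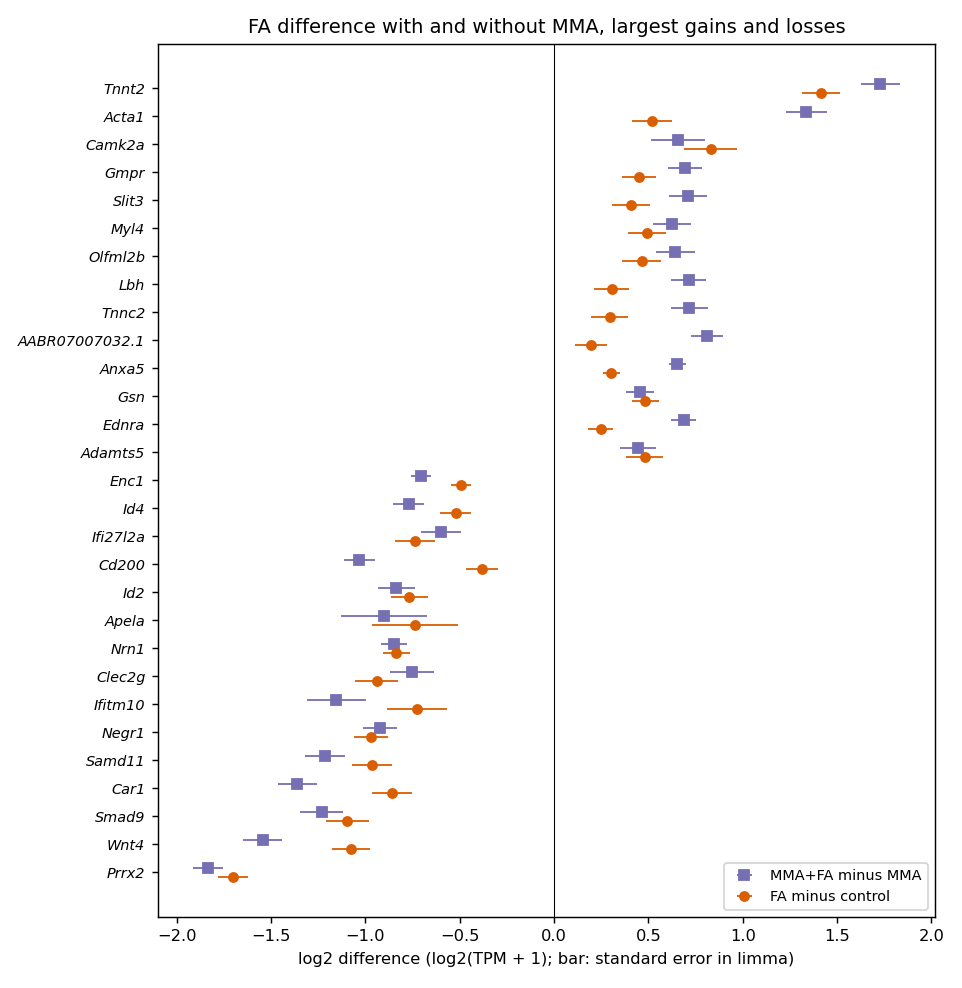
Log2 difference with limma's standard error (horizontal axis, log2(TPM + 1) scale) for 14 named genes with the largest gains and 15 with the largest losses, with MMA (squares, MMA+FA minus MMA) and without it (circles, FA minus control). All 29 genes lie on the same side of 0 in both strata, which the choice of genes without overlap favours, and Prrx2 lies farthest to the left at -1.83 and -1.70.

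Among the other named gains without overlap were genes of diverse function. Gmpr, a reductase of guanine nucleotide salvage, ranged from 12.98 to 20.5 TPM (median 14.98) in the 6 libraries with FA, against 8.72 to 12.6 TPM (median 10.2) in the 6 without. Anxa5, which binds phosphatidylserine, ranged from 163 to 229 TPM (median 195) in the 6 libraries with FA, against 131 to 147 TPM (median 139) in the 6 without. Slit3, a secreted guidance ligand, rose by 0.56, the matrix protein gene Olfml2b by 0.55, the transcriptional cofactor gene Lbh by 0.51 and the aggrecanase gene Adamts5 by 0.46, with adjusted p-values from 0.000645 to 0.00192.

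The largest loss was in the homeobox gene Prrx2, and several genes of BMP signalling, inhibitors of differentiation among them, fell as well. BMP ligands act through SMAD1, SMAD5 and SMAD9, whose targets include the ID proteins, which keep basic helix-loop-helix factors from binding DNA, and feedback inhibitors such as SMAD6, SMAD7 and BAMBI. Of 33 tested genes of BMP and TGF-beta signalling, 13 were lower and 4 higher (median -0.08), against 15.6% lower and 5.27% higher over all tested genes. Without overlap 9 were lower and 3 higher, against 2.5% and 1.51% of all tested genes. Under median-ratio scaling 11 were lower and 8 higher, against 8.12% and 9.42% of all tested genes. Without FA replicate 2 or MMA replicate 3 the 4 higher became 7.

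Prrx2 (ENSRNOG00000058329), which marks limb and craniofacial mesenchyme in the embryo, stood at 9.65, 11.7 and 9.85 TPM with FA and 5.04, 5.39 and 5.98 TPM with MMA+FA, against 34.4, 35.7 and 37.9 TPM in control cells and 22.7, 22.9 and 20.5 TPM with MMA. The highest library with FA lay below the lowest without it, and on both sides the libraries with MMA were lower than those without MMA (log2 difference -1.77, SE 0.06, adjusted p = 1.57e-09). Smad9 (ENSRNOG00000000091), a BMP receptor substrate, stood at 3.43, 3.9 and 4.03 TPM with FA and 1.97, 1.59 and 2.14 TPM with MMA+FA, against 8.91, 9.85 and 8.93 TPM in control cells and 6.35, 6.54 and 4.66 TPM with MMA. Its lowest libraries were those with MMA+FA, and MMA replicate 3 was the lowest without FA (log2 difference -1.16, SE 0.08, adjusted p = 3.75e-06). Id2 (ENSRNOG00000007237) stood at 68.8, 82.8 and 83.97 TPM with FA and 62.6, 67.4 and 79.8 TPM with MMA+FA, against 123, 141 and 138 TPM in control cells and 128, 134 and 114 TPM with MMA, and the ranges with and without MMA ran into each other on either side (log2 difference -0.80, SE 0.07, adjusted p = 3.03e-05). Id4 ranged from 3.84 to 5.41 TPM (median 5.03) in the 6 libraries with FA, against 7.29 to 8.51 TPM (median 8.04) in the 6 without, and Id3 from 333 to 462 TPM (median 404) in the 6 libraries with FA, against 530.4 to 610.0 TPM (median 580.3) in the 6 without. Both fell without overlap, by 0.65 and 0.53, and Id1 fell by 0.25. The inhibitors Bambi and Smad7 fell by 0.50 and 0.40 without overlap and Smad6 by 0.50 with it. The receptor gene Tgfbr1 fell by 0.23. On the other side Tgfb3, a TGF-beta ligand, rose by 0.42, and its receptor gene Tgfbr2 by 0.23, both without overlap, while Bmp4 rose by 0.26 with overlap.

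Wnt4 (ENSRNOG00000013166), a secreted Wnt ligand, stood at 6.66, 6.42 and 7.9 TPM with FA and 3.8, 3.33 and 4.15 TPM with MMA+FA, against 16.3, 17.1 and 14.1 TPM in control cells and 12.4, 14.4 and 11.8 TPM with MMA. Its FA libraries lay below those without FA and its MMA+FA libraries below those with FA alone (log2 difference -1.31, SE 0.10, adjusted p = 5.51e-06). Fzd4, a Wnt receptor, ranged from 16.9 to 25.4 TPM (median 21.04) in the 6 libraries with FA, against 25.5 to 32.9 TPM (median 29.9) in the 6 without, and Lgr4, a receptor for R-spondins, from 17.7 to 24.2 TPM (median 20.5) in the 6 libraries with FA, against 24.5 to 32.8 TPM (median 28.5) in the 6 without. Both fell without overlap, while the R-spondin gene Rspo1 rose by 0.29. Across 35 tested Wnt genes, 4 were lower and 1 higher (median -0.02), against 15.6% and 5.27% of all tested genes. Under median-ratio scaling 3 were lower and 4 higher, near the 8.12% and 9.42% of all tested genes there. Of 22 mesenchymal factors, 4 were lower and 5 higher under median-ratio scaling, against the same 8.12% and 9.42%. As deposited 5 were lower and 5 higher, against 15.6% and 5.27% of all tested genes. The 5 higher became 3 without FA replicate 3, control replicates 2 or 3, MMA replicate 2 or MMA+FA replicate 1. Foxf2, Runx2 and Snai2 fell by 0.49, 0.25 and 0.20 with overlap, and Snai1 and Tcf4 rose by 0.23 and 0.19 without it.

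The GC-rich motif GGCGCC, to which SMADs of the BMP pathway can bind, was searched because of these losses. It was present in 29.1% of the 234 promoters of lower genes and 17.2% of the 134 of higher genes, against 22.1% of promoters of tested genes and 12.2% of all. The 120 bases before the start are shown for Smad9 and Wnt4, the largest losses of the BMP and the Wnt list (RefSeq, GRCr8, plus strand for both, Smad9 at chr2:141106548-141106667 and Wnt4 at chr5:154797330-154797449), with the motif in capitals.
Smad9: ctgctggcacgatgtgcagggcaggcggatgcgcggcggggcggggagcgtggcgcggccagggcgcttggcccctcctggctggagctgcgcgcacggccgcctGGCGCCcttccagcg
Wnt4: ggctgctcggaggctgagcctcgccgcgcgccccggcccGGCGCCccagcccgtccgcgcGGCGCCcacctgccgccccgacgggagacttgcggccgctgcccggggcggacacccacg
The motif lies 15 to 10 bases before the start of Smad9, and 81 to 76 and 60 to 55 bases before that of Wnt4. A match in these letters is not a measured binding site.

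Other named losses covered several functions. Negr1, a neuronal adhesion protein gene, stood at 10.2, 11.3 and 12.7 TPM with FA and 8.38, 7.64 and 7.27 TPM with MMA+FA, against 21.2, 23.6 and 24.9 TPM in control cells and 16.1, 16.8 and 14.01 TPM with MMA (log2 difference -0.95, SE 0.06, adjusted p = 2.32e-06), and Nrn1, which encodes neuritin, ranged from 10.7 to 16.4 TPM (median 13.8) in the 6 libraries with FA, against 21.4 to 31.4 TPM (median 24.4) in the 6 without (log2 difference -0.84, SE 0.05, adjusted p = 7.02e-07). In both, MMA+FA libraries were lowest and control libraries highest. Car1, a carbonic anhydrase gene, ranged from 1.44 to 4.3 TPM (median 2.69) in the 6 libraries with FA, against 4.81 to 8.01 TPM (median 7.02) in the 6 without, and Samd11 from 1.5 to 3.55 TPM (median 2.46) in the 6 libraries with FA, against 4.2 to 7.91 TPM (median 6.6) in the 6 without. Cd200, a surface ligand that restrains myeloid cells, ranged from 15.2 to 27.2 TPM (median 19.8) in the 6 libraries with FA, against 29.97 to 37.6 TPM (median 32.2) in the 6 without, with a difference of -1.03 with MMA and -0.38 without it. Apela, a ligand of the apelin receptor, fell by 0.82 and Ifi27l2a, an interferon-inducible gene, by 0.67. An unnamed long noncoding RNA fell by 1.52 without overlap, with 1.88 to 5.65 TPM in libraries with FA, against 8.55 to 16.4 TPM in those without. It was singled out after its values were seen.

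**Figure D3:**
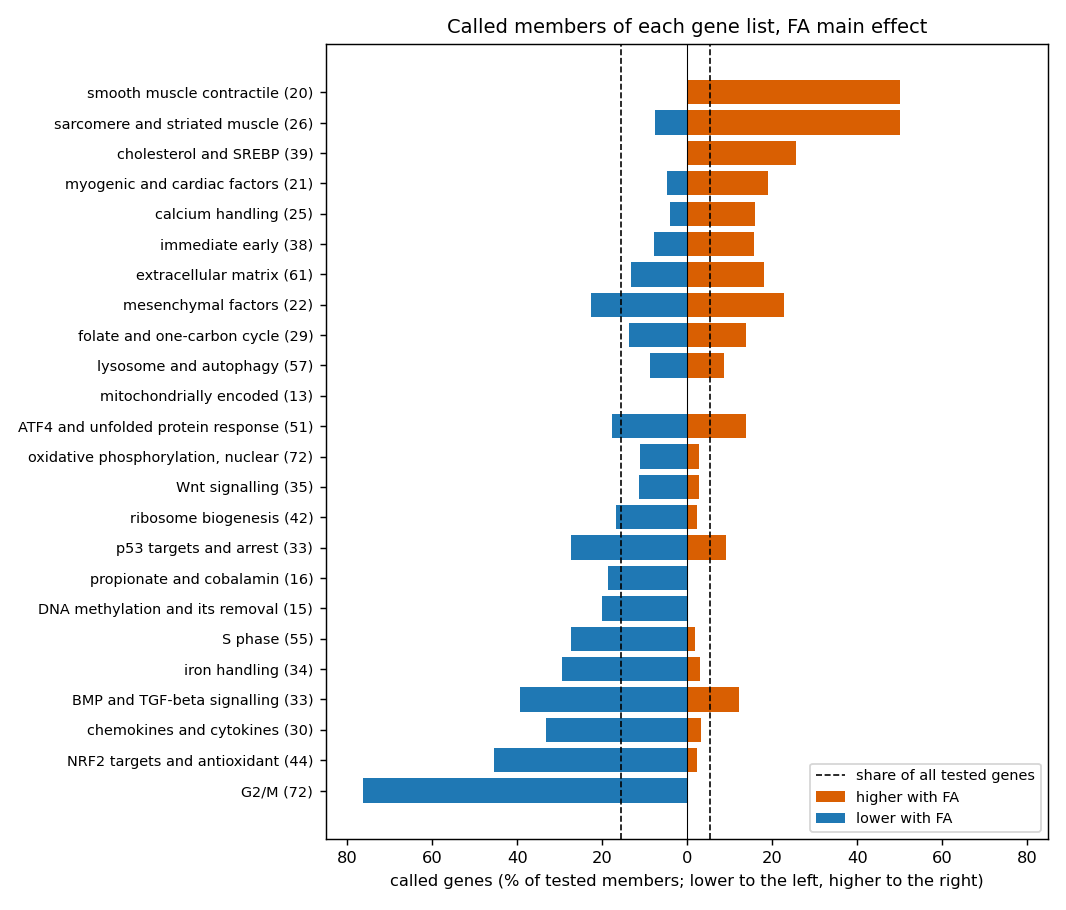
Share of tested members of each gene list that limma called higher (right, orange) or lower (left, blue) with FA, with the number tested in brackets. Dashed lines mark the shares over all tested genes, 5.27% higher and 15.6% lower. The G2/M list reaches farthest to the left (55 of 72) and the smooth muscle and sarcomere lists farthest to the right (10 of 20 and 13 of 26).

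Most genes of mitosis were lower with FA, and each of those tested had a more negative difference where MMA was present. Of 72 tested G2/M genes, 55 were lower and 0 higher (median -0.29), against 15.6% and 5.27% of all tested genes. Without overlap 19 were lower, against 2.5% of all tested genes, and under median-ratio scaling 40 were lower, against 8.12%. In the MMA+FA against MMA comparison 68 of the 72 were lower (median -0.44), against 9.53% of all tested genes, and 60 to 69 when any 1 library was left out. In FA against control 8 were lower (median -0.11), against 8.7% of all tested genes. That count was 1 without FA replicate 1, FA replicate 3 or control replicate 3, 3 without control replicate 2 or MMA replicate 1, 4 without MMA replicate 2 or MMA+FA replicate 1, 5 without control replicate 1, 13 without MMA+FA replicate 3, and 2 under median-ratio scaling. The difference was more negative with MMA in 72 of 72 genes, and the test of the interaction called 26 of them, against 2.41% of all tested genes. The interaction count was 8 without FA replicate 1, 10 without control replicate 1 or MMA+FA replicate 2, 12 without MMA replicate 3 or MMA+FA replicate 1, and 13, 14 and 15 without control replicate 3, MMA replicate 1 and MMA replicate 2. It was 19 to 35 without the others, and 29 under median-ratio scaling. Calls over all tested genes also changed when a library was left out. Without FA replicate 1 the interaction count fell from 295 to 92, and the calls of FA against control from 1517 to 328. Without control replicate 3 they fell to 96 and 214.

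Hmmr, which encodes a spindle-associated hyaluronan receptor, stood at 35.7, 38.2 and 32.6 TPM with FA and 29.7, 27.6 and 30.2 TPM with MMA+FA, against 48.3, 47.04 and 50.5 TPM in control cells and 48.8, 46.6 and 40.7 TPM with MMA. Its levels with FA lay below all others, and its MMA+FA libraries were lowest (log2 difference -0.53, SE 0.06, adjusted p = 0.000102). Kif11, the motor that separates spindle poles, ranged from 35.9 to 49.3 TPM (median 42.1) in the 6 libraries with FA, against 52.8 to 61.2 TPM (median 58.1) in the 6 without, and Cdc25b, a phosphatase that activates cyclin-dependent kinase, from 40.4 to 50.98 TPM (median 44.2) in the 6 libraries with FA, against 53.1 to 60.8 TPM (median 56.3) in the 6 without. Cdk1, the kinase that drives entry into mitosis, stood at 133, 129 and 135 TPM with FA and 107, 107 and 119 TPM with MMA+FA, against 138, 148 and 148 TPM in control cells and 163, 161 and 169 TPM with MMA. The FA and control libraries lay close together and the MMA+FA and MMA libraries far apart, with log2 differences of -0.56 with MMA and -0.13 without it (adjusted p = 0.0121 for the interaction). Nusap1, a spindle protein gene, differed by -0.65 with MMA and -0.17 without it (adjusted p = 0.015). The proliferation marker Mki67 fell by 0.44 and the cohesin protector gene Sgo2 by 0.53 without overlap, and Top2a and Ccnb1 fell by 0.33 and 0.32 with overlap.

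Genes of S phase likewise had lower calls mainly where MMA was present. Of 55 tested, 15 were lower and 1 higher over both strata (median -0.09), against 15.6% and 5.27% of all tested genes. Under median-ratio scaling 7 were lower, against 8.12% of all tested genes. The 15 became 8 without MMA+FA replicate 1, MMA replicate 1 or MMA replicate 2, and 9 without MMA+FA replicate 2. The 1 higher became 4 without MMA replicate 3. With MMA 20 were lower and 0 higher (median -0.24), against 9.53% and 4.19% of all tested genes, and 14 to 25 were lower when any 1 library was left out. Without MMA 2 were lower and 3 higher (median 0.05), against 8.7% and 3.67%. The 3 became 9 without FA replicate 2, 1 without FA replicates 1 or 3 and 0 without control replicate 3. In these fits FA against control called 2571, 328, 606 and 214 of all tested genes, in that order, against 1517. The 2 became 0 in 8 of the 12 fits that left out 1 library. Under median-ratio scaling 17 were lower with MMA, and 0 lower and 3 higher without it. The difference was more negative with MMA in 53 of 55 genes, and 7 were called in the interaction, against 2.41% of all tested genes. That count of 7 was 0 without FA replicate 1, control replicate 3, MMA replicate 3, MMA+FA replicate 1 or MMA+FA replicate 2. It was 1 to 11 without each other library. In the fits with 0, the count of 295 over all tested genes became 92, 96, 109, 177 and 125, in that order. Rfc4, a subunit of the clamp loader of DNA replication, ranged from 65.2 to 75.8 TPM (median 70) in the 6 libraries with FA, against 80.8 to 91.03 TPM (median 85.2) in the 6 without (log2 difference -0.28, SE 0.05, adjusted p = 0.00194), and Pola1, the catalytic subunit of DNA polymerase alpha, from 11.1 to 13.9 TPM (median 12.9) in the 6 libraries with FA, against 13.9 to 16.4 TPM (median 14.9) in the 6 without. Rpa2, which coats single-stranded DNA, fell by 0.35 without overlap. Ung, which removes uracil from DNA, rose by 0.38.

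**Figure D4:**
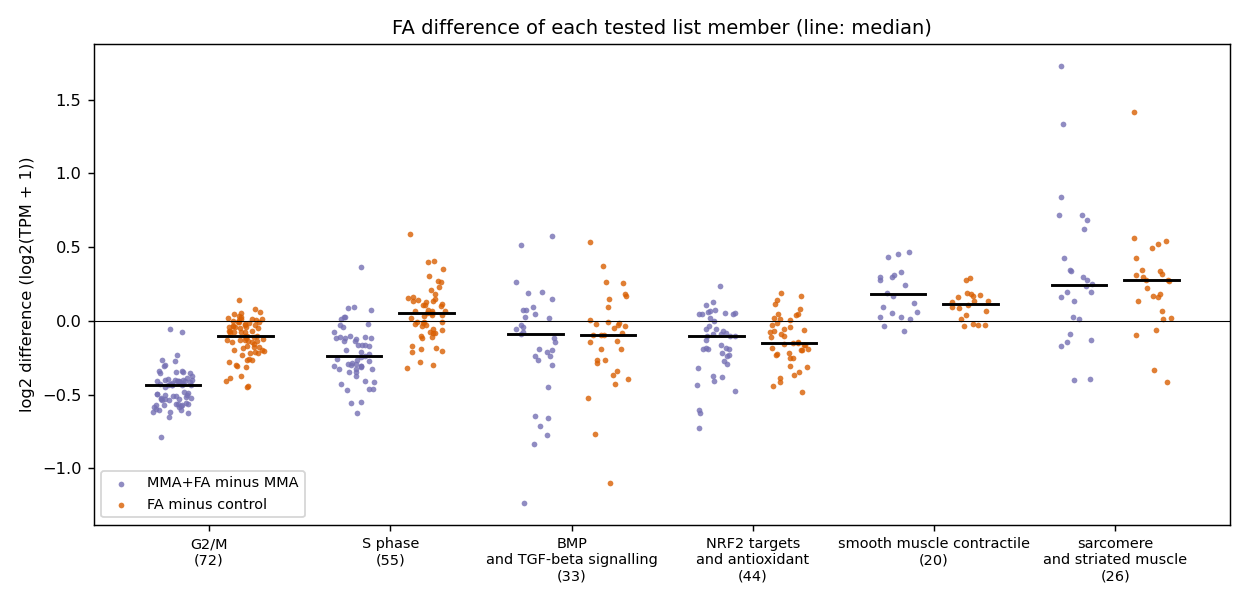
Log2 difference of each tested member of 6 gene lists (vertical axis, log2(TPM + 1) scale), with MMA (left of each pair, MMA+FA minus MMA) and without it (right, FA minus control). Black lines are medians. The G2/M medians are -0.44 with MMA and -0.11 without, and the NRF2, BMP and smooth muscle lists lie at like heights in both strata.

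Antioxidant genes controlled by NRF2 were called lower with FA in 20 of 44 tested. NRF2 (Nfe2l2) is the transcription factor that switches on glutathione and thioredoxin genes under oxidant or electrophile stress. Besides the 20, 1 was higher and 23 were not called (median -0.11), against 15.6% lower and 5.27% higher over all tested genes. Without overlap 5 were lower and 1 higher, against 2.5% and 1.51% of all tested genes. Under median-ratio scaling 15 were lower and 3 higher, against 8.12% and 9.42% of all tested genes. In each stratum 13 were lower, against 9.53% of all tested genes with MMA and 8.7% without it. Nqo1, a quinone reductase gene and standard NRF2 target, stood at 151, 163 and 172 TPM with FA and 143, 168 and 159 TPM with MMA+FA, against 219, 196 and 232 TPM in control cells and 210.3, 209.9 and 215 TPM with MMA. The groups did not overlap, and on each side the libraries with MMA overlapped those without it (log2 difference -0.42, SE 0.05, adjusted p = 0.000212). Gsta1, a glutathione transferase gene, ranged from 42.4 to 57.8 TPM (median 44.2) in the 6 libraries with FA, against 60.5 to 80.2 TPM (median 72) in the 6 without (log2 difference -0.58, SE 0.08, adjusted p = 0.000634), and Gstp1, another, from 941 to 1057 TPM (median 998) in the 6 libraries with FA, against 1113 to 1353 TPM (median 1149) in the 6 without (log2 difference -0.25, SE 0.04, adjusted p = 0.00295). Gclm and Gclc, the subunits of the enzyme that starts glutathione synthesis, fell by 0.34 and 0.25, Txnrd1 by 0.20, Hmox1 by 0.28 and Nfe2l2 itself by 0.20, all with overlap. Srxn1 fell by 0.43 and the mitochondrial superoxide dismutase gene Sod2 by 0.19 without overlap. Gpx1, a glutathione peroxidase gene, rose by 0.16. The antioxidant response motif TGACNNNGC was in 15.8% of promoters of genes lower without overlap and 7.46% of those higher, against 14.8% of tested genes.

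Of 34 iron handling genes 10 were lower and 1 higher, against 15.6% and 5.27% of all tested genes. Their median of -0.06 was close to the -0.04 of all tested genes. Under median-ratio scaling 8 were lower and 2 higher, against 8.12% and 9.42% of all tested genes. Ftl1, the ferritin light chain, ranged from 3392 to 4334 TPM (median 4117) in the 6 libraries with FA, against 4556 to 5497 TPM (median 4787) in the 6 without (log2 difference -0.29, SE 0.04, adjusted p = 0.000349), with the limit that its symbol belongs to 2 identifiers whose reads may be hard to separate. Fth1, the heavy chain, differed by -0.17 (adjusted p = 0.0135, and 0.0563 under median-ratio scaling), and the iron exporter gene Slc40a1 fell by 0.37 and the metalloreductase gene Steap1 by 0.32.

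Chemokine and cytokine genes were lower in 10 of 30 and higher in 1 (median -0.12), against 15.6% and 5.27% of all tested genes. Under median-ratio scaling 9 were lower and 2 higher, against 8.12% and 9.42%. Cxcl1, a neutrophil chemokine, stood at 37, 44.99 and 38.7 TPM with FA and 32.3, 47.7 and 35.5 TPM with MMA+FA, against 72.9, 74.7 and 99.4 TPM in control cells and 60.4, 64.2 and 46.01 TPM with MMA. The lowest library without FA, MMA replicate 3, lay inside the range with FA (log2 difference -0.78, SE 0.13, adjusted p = 0.00169). Nfkbia, the inhibitor of NF-kappa B that is itself an NF-kappa B target, ranged from 20.3 to 24.99 TPM (median 22.1) in the 6 libraries with FA, against 29.3 to 33.5 TPM (median 31.4) in the 6 without (log2 difference -0.48, SE 0.05, adjusted p = 0.000104), and Osmr, the receptor of oncostatin M, from 26.7 to 37.4 TPM (median 32.1) in the 6 libraries with FA, against 37.8 to 43.1 TPM (median 40.4) in the 6 without. Both fell without overlap. Ccl7, a chemokine for monocytes, fell by 0.75 and the growth factor gene Csf1 by 0.45 with overlap. Tnfaip6 rose by 0.35.

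Genes of cholesterol synthesis and uptake were higher in 10 of 39 and lower in 0 (median 0.10), against 5.27% and 15.6% of all tested genes, although only Msmo1 was free of overlap. Under median-ratio scaling 11 were higher and 0 lower, against 9.42% and 8.12% of all tested genes. The count was 6 without FA replicate 1, control replicate 3, MMA replicate 1, MMA replicate 2 or MMA+FA replicate 1. Msmo1, a sterol oxidase gene, ranged from 40.5 to 58.7 TPM (median 46.3) in the 6 libraries with FA, against 38.2 to 40.1 TPM (median 38.8) in the 6 without (log2 difference 0.26, SE 0.06, adjusted p = 0.00836). Insig1, which holds back the maturation of SREBP factors, rose by 0.43 with overlap.

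Extracellular matrix genes moved both ways, with 11 of 61 higher and 8 lower (median 0.07), against 5.27% and 15.6% of all tested genes. The 8 became 5 without MMA+FA replicate 3, MMA replicate 1 or MMA replicate 2. Under median-ratio scaling 16 were higher and 5 lower, against 9.42% and 8.12% of all tested genes. Loxl1, which crosslinks elastin, ranged from 124 to 172 TPM (median 145) in the 6 libraries with FA, against 103 to 121 TPM (median 112) in the 6 without (log2 difference 0.36, SE 0.07, adjusted p = 0.00484), and Spp1, which encodes osteopontin, from 222 to 307 TPM (median 248) in the 6 libraries with FA, against 312 to 431 TPM (median 357) in the 6 without (log2 difference -0.53, SE 0.06, adjusted p = 0.00012). With MMA 3 members were higher and 9 lower (4.19% and 9.53% of all tested genes), and without MMA 17 were higher and 2 lower (3.67% and 8.7%). In 58 of 61 the value was smaller with MMA, and 4 of these were called in the interaction, against 2.41% of all tested genes. The 17 became 4 when control replicate 3 was left out, 6 when FA replicate 1 was, 8 when FA replicate 3 was and 11 when control replicate 2 was. In these fits the 1517 calls without MMA over all tested genes became 214, 328, 606 and 729, in that order. With MMA, the 9 became 3 without MMA replicate 1 and 5 without MMA+FA replicate 2, and the 3 became 1 without MMA+FA replicate 1 or MMA replicate 2. In these fits the 1683 calls with MMA over all tested genes became 869, 1161, 1148 and 868, in that order. Under median-ratio scaling 4 were higher and 6 lower with MMA, and 22 higher and 1 lower without it. The interaction count ranged from 0 to 9 across the libraries left out, and was 0 without control replicate 1 or FA replicate 1. Over all tested genes it was 85 and 92 in those fits, against 295.

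Of 57 lysosome and autophagy genes, 5 were higher and 5 lower over both strata, against 5.27% and 15.6% of all tested genes. Under median-ratio scaling 10 were higher and 2 lower, against 9.42% and 8.12%. The 5 higher became 3 and the 5 lower 2 without MMA replicate 1 or MMA replicate 2, and the 5 lower became 3 without FA replicate 1 or control replicate 3. With MMA 14 of 57 were higher and 1 lower, against 4.19% and 9.53% of all tested genes. Without MMA 1 was higher and 10 lower, against 3.67% and 8.7%. The interaction was called in 11, against 2.41% of all tested genes. In each of the 11 the value was larger where MMA was present. The 14 became 7 without MMA+FA replicate 1 and 8 without MMA+FA replicate 2, MMA replicate 1 or MMA replicate 2. In these fits the 1683 calls with MMA over all tested genes became 1148, 1161, 869 and 868, in that order. The 10 became 2 without FA replicate 1 or control replicate 3, 4 without control replicate 1 and 6 without control replicate 2. Here the 1517 calls without MMA over all tested genes became 328, 214, 621 and 729. Under median-ratio scaling 17 were higher and 1 lower with MMA, and 3 higher and 3 lower without it, and the interaction was again called in 11. The interaction count was 3 without control replicate 1, control replicate 3, FA replicate 1 or MMA replicate 3, 4 without MMA replicate 2 or MMA+FA replicate 2, 6 without MMA+FA replicate 1, and 8 to 14 otherwise. In the fits with 3, the count of 295 over all tested genes became 85, 96, 92 and 109, in that order. Ctsl, which encodes the protease cathepsin L, ranged from 214 to 251 TPM (median 231) in the 6 libraries with FA, against 276 to 408 TPM (median 326) in the 6 without (log2 difference -0.49, SE 0.06, adjusted p = 0.000244). Map1lc3a, an autophagosome protein gene, rose by 0.17 and Hexa, the alpha subunit of hexosaminidase, by 0.15, both without overlap.

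Genes of folate metabolism itself were called in both directions. Of 29 tested, 4 were higher and 4 lower (median -0.08), against 5.27% and 15.6% of all tested genes. Only Sardh was free of overlap, against 4.01% of all tested genes. The 4 lower became 1 without MMA+FA replicate 1 or MMA replicate 1 and under median-ratio scaling, and 2 without each of 6 other libraries. Of all tested genes 8.12% were lower under median-ratio scaling. Sardh, the mitochondrial sarcosine dehydrogenase whose product feeds one-carbon units to folate, ranged from 27 to 30.4 TPM (median 28.1) in the 6 libraries with FA, against 22.6 to 25.2 TPM (median 23.5) in the 6 without (log2 difference 0.25, SE 0.04, adjusted p = 0.00142). Slc19a1, the reduced folate carrier, stood at 18.3, 16.8 and 18.8 TPM with FA and 17.1, 17.8 and 17.9 TPM with MMA+FA, against 14.04, 14.2 and 14.3 TPM in control cells and 16.5, 15.8 and 17.1 TPM with MMA. The control libraries were lowest, and the MMA libraries overlapped those with FA (log2 difference 0.21, SE 0.05, adjusted p = 0.0118). Mat2a, which makes S-adenosylmethionine, rose by 0.30, and Mthfs, which recycles 5-formyltetrahydrofolate, fell by 0.31. The differences of Mtr (-0.06), Mthfd2 (-0.05) and Shmt2 (-0.08) did not pass, with adjusted p-values of 0.286, 0.291 and 0.406 for Shmt2, Mtr and Mthfd2. Methionine synthase, encoded by Mtr, averaged 24.6 ± 2.44 TPM with FA and 25.5 ± 1.17 TPM without (SD, n = 6 each). Of 16 genes of propionate and cobalamin metabolism 3 were lower, Mmachc, Mcee and Sucla2 (median -0.04), against 15.6% of all tested genes. None of the 16 was higher or free of overlap, against 5.27% and 4.01%. Leaving out 1 of 8 libraries lowered the 3 to 1. Under median-ratio scaling 1 was lower and 1 higher, against 8.12% and 9.42% of all tested genes. Mmut, the mutase that acts on methylmalonyl-CoA, averaged 8.78 ± 0.668 TPM with FA and 9.29 ± 1.23 TPM without (log2 difference -0.07, adjusted p = 0.539), and the cobalamin carrier gene Tcn2 differed by 0.01.

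The remaining lists are given by their counts, which can be read against the 15.6% lower and 5.27% higher of all tested genes. Counts under median-ratio scaling can be read against the 8.12% lower and 9.42% higher found there. Of 72 nuclear genes of oxidative phosphorylation 8 were lower and 2 higher (3 to 5 lower in 9 of the 12 fits that left out 1 library, and 3 lower and 5 higher under median-ratio scaling), and none of the 13 mitochondrially encoded genes was called (1 higher under median-ratio scaling). Ndufab1, of complex I, fell by 0.20 without overlap. Of 33 genes of the p53 response and arrest, 9 were lower and 3 higher, but 5 lower and 4 higher under median-ratio scaling, and the 3 became 1 without control replicate 1, MMA replicate 1, MMA replicate 2 or MMA+FA replicate 1, with Rbl1, a relative of the retinoblastoma protein, down by 0.30 without overlap. Of 51 genes of ATF4 and the unfolded protein response, 9 were lower and 7 higher as deposited, but 1 lower and 9 higher under median-ratio scaling, and 4 higher without control replicate 3, MMA replicate 1, MMA replicate 2 or MMA+FA replicate 1. The chaperone gene Calr rose by 0.20 without overlap. Of 42 ribosome biogenesis genes 7 were lower and 1 higher, against 4 and 2 under median-ratio scaling. The 7 became 11 without MMA replicate 3 and the 1 became 3 without FA replicate 2. Nop58, a core protein of box C/D particles, ranged from 196 to 227 TPM (median 203) in the 6 libraries with FA, against 228 to 276 TPM (median 265) in the 6 without. Of 38 immediate early genes 6 were higher and 3 lower, 11 and 3 under median-ratio scaling, and 5 were lower without FA replicate 3. Gadd45a fell by 0.21 and Ier5 rose by 0.18, both without overlap. Of 15 genes of DNA methylation and its removal 3 were lower, and 1 under median-ratio scaling and without control replicate 3, MMA replicate 1 or MMA replicate 2, and Gadd45a was the one without overlap.

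The 2 strata share no library, so they can be set side by side. MMA+FA against MMA called 1683 genes (13.7%), 514 higher (4.19%) and 1169 lower (9.53%), and FA against control called 1517 (12.4%), 450 higher (3.67%) and 1067 lower (8.7%). Both called 452 genes, 34 of them in opposite directions. The 418 of like direction, 118 higher and 300 lower, were 24.8% of the set with MMA and 27.6% of the set without. Of the genes called without MMA, 81.4% had the same sign with MMA, against 65.1% of all tested genes. Across the 12263 genes the differences had a Pearson's r of 0.273 and a Spearman's rho of 0.344, given as a description since genes are not independent and both fits share 1 variance estimate. Under median-ratio scaling the calls were 1543 for MMA+FA against MMA and 1185 for FA against control. Single libraries weighed on these counts. FA against control gave 328 calls when FA replicate 1 was left out, 2571 when FA replicate 2 was and 606 when FA replicate 3 was. It gave 621, 729 and 214 calls when control replicates 1, 2 and 3 were left out in turn, and MMA+FA against MMA gave 869 without MMA replicate 1 and 868 without MMA replicate 2.

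**Figure D5:**
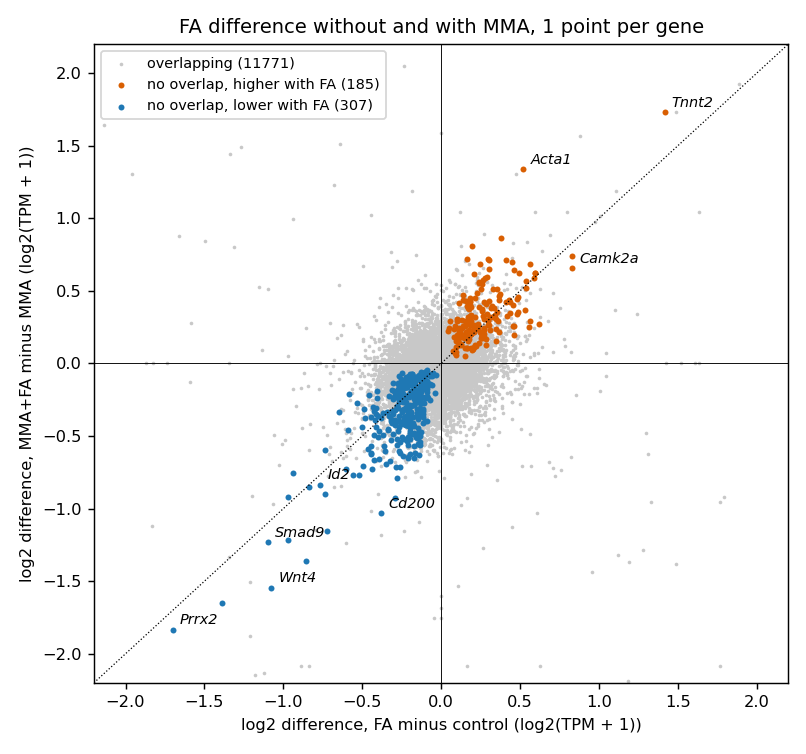
Log2 difference of each tested gene with MMA (vertical axis, MMA+FA minus MMA) against that without it (horizontal axis, FA minus control), on the log2(TPM + 1) scale. Orange and blue points are the 185 higher and 307 lower genes without overlap, grey points the others, and the dotted line marks equal differences. Axes end at 2.2 in each direction, beyond which 16 grey points lie, and Tnnt2 and Prrx2 stand at the ends of the diagonal.

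The interaction was called in 295 genes (2.41%), and in 29 of the 492 genes without overlap. The count of 295 was 85 without control replicate 1, 92 without FA replicate 1, 96 without control replicate 3, 109 without MMA replicate 3, 125 without MMA+FA replicate 2, 132 without MMA replicate 2, 154 without MMA replicate 1, 177 without MMA+FA replicate 1, 182 without control replicate 2 and 496 without FA replicate 2. Of 285 interaction genes with a group mean of at least 5 TPM, 208 had FA differences of opposite sign in the 2 strata. Among the 492, whose members have 1 direction by the rule, 365 were called with MMA, 281 without MMA and 214 in both, and the difference was larger in size with MMA in 329. Over all tested genes it was larger in size with MMA in 5833 of 12263.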

How the data were processed

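Polyadenylated RNA of H9c2 cells was sequenced as stranded libraries, per the labels' protocols. The submitters' processing notes name fastp, HISAT2 and the rat genome build mRatBN7.2. No source used here gives versions or settings. Per gene, the authors deposited TPM, in a file whose title names RSEM. Counts were not used here, so depth and counting error are unknown. All 12 sample columns were used and 0 were left unmapped.

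Genes averaging 1 TPM or more across all 12 libraries were tested, and log2(TPM + 1) was fitted in limma 3.58.1 (R 4.3.3, data.table version 1.17.8) with a mean-variance trend. The main effect of FA came from an additive model of FA and MMA (9 residual degrees of freedom). The FA differences with and without MMA and their interaction came from a model of 4 group means (8 residual degrees of freedom). A call needed an adjusted p under 0.05 by the method of Benjamini and Hochberg over all tested genes. Every adjusted p in the text is limma's. Overlap was judged on TPM. Shares of a library were compared by an exact permutation test within MMA strata (400 exchanges, smallest p 0.005). The code was tested on simulated data.

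The genes with no overlap, and the 25 gene lists written from general knowledge, were chosen with earlier results of these data known, so no list gets a test of its own. Genes were named by a rule: called genes with a symbol, no overlap and at least 5 TPM in the higher group, the 15 largest in each direction; up to 3 such genes per list by smallest p; 8 genes of folate and cobalamin metabolism whatever their result; the genes just inside and outside the no-overlap limit; and up to 6 interaction genes. Part of them are named in the text, and some genes are not reported here. Other list members named in the text, and those drawn in the plots, were picked with their values in view. Settings varied were scaling, pseudocount, filter, variance model, design, replicate block and each library left out. Counts per list, per stratum and for single list members under these settings, and array weights by limma's gene by gene method, were added after seeing the data. Promoters came from a RefSeq table of GRCr8, which is not the build of the values, matched by symbol. Plots used Python 3.11.15 with pandas 2.3.3, numpy 2.4.6 and matplotlib 3.10.9.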

Additional observations from a re-analysis of the deposited data

Results flagged for a closer look

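The FA difference depended on MMA in 11 of the named genes without overlap, by limma's test of the interaction (FA difference with MMA minus FA difference without it, log2 scale), against 2.41% of all tested genes. For 6 of the 11, Vcl, Cdk1, Trim63, Rpa2, Nusap1 and Rrm2l1, a called interaction was the reason for naming them, so the 11 is partly fixed by that choice. The interaction was positive for Acta1 (0.82, adjusted p = 0.0205), AABR07007032.1 (0.61, 0.0216), Trim63 (0.55, 0.0146), Ednra (0.44, 0.0324), Anxa5 (0.35, 0.017) and Vcl (0.33, 0.0112), which means a larger gain where MMA was present. It was negative for Cd200 (-0.65, adjusted p = 0.0173), Rrm2l1 (-0.49, 0.0166), Nusap1 (-0.47, 0.015), Cdk1 (-0.43, 0.0121) and Rpa2 (-0.40, 0.0146), which means a larger loss where MMA was present. The calls of Vcl, Cdk1, Trim63, Rpa2, Nusap1 and Rrm2l1 held with any 1 library left out, with 0.0483 as their highest adjusted p. That of Acta1 was lost without control replicates 1 or 3 (highest 0.0576), that of Cd200 without the same libraries (0.0564), that of Anxa5 without control replicate 1 (0.0576), that of AABR07007032.1 without 4 libraries (0.0618) and that of Ednra without 9 (0.0896). Rrm2l1 is a symbol of 2 identifiers, so its reads may be hard to place.

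Single libraries stood apart from the other 5 on their side in 6 of 170 sets of 6 values looked at. Each set pools libraries with and without MMA, the sets reuse the same 12 libraries, and most genes were chosen for lack of overlap. The count can therefore not be set against a rate given by chance. With FA these were Clec2g in FA replicate 2 (12.6 TPM, the highest) and Hexa in MMA+FA replicate 1 (153 TPM, the highest). Without FA they were Ier5 (139.9 TPM) and Nop58 (228 TPM) in MMA replicate 3, both the lowest, and Slbp (82.2 TPM, the highest) and Pes1 (42.3 TPM, the lowest) in MMA replicate 1.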

How the results depend on the processing

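Among the 88 named genes, each refitted under 24 alternatives, 2089 values kept their direction and side of the threshold, 18 lost their call and 0 reversed, and 79 of the 81 called genes kept their call under every alternative run. The exceptions were Slbp (adjusted p = 0.0663 under median-ratio scaling and 0.0666 under quantile normalization) and Bax, lost in 16 settings. Most of the 88 genes were named for being called without overlap in these same data, which favours a kept call. Their share can therefore not stand for the other called genes. The pooled counts moved with scaling and with single libraries. Median-ratio scaling gave 1155 higher and 996 lower genes, and quantile normalization 1088 and 1009, with 282 higher without overlap. An FA term alone, with MMA not in the model, called 1148 genes, 360 higher and 788 lower. Without a filter on low values, FA against control called 928 genes and the interaction 181. With array weights MMA+FA against MMA called 2876, FA against control 3577 and the interaction 954. A fit of only the FA and control libraries called 604. Leaving out each library in turn gave 1676 to 3039 genes for the main effect, 429 to 827 higher and 1238 to 2307 lower, 189 to 327 higher and 328 to 802 lower without overlap, 868 to 1948 for MMA+FA against MMA, 214 to 2571 for FA against control and 85 to 496 for the interaction. The cause of these movements was not tested. Fewer libraries make overlap rarer by construction, but the size of the rise differed between libraries. A pseudocount cannot alter overlap. Other pseudocounts, a filter at 5 TPM and TPM without mitochondrially encoded genes and ubiquitin loci kept every count over all tested genes within 1.5 times. Among list counts, leaving out those loci lowered oxidative phosphorylation to 4 lower and propionate to 1, and the 5 TPM filter the sarcomere to 1 lower. With a replicate block the main effect called 2279 genes, 598 higher and 1681 lower. Libraries of like number in different groups correlated at -0.124 to 0.107 in their deviations, and 0 of 12 correlated best with its own number. With only 3 libraries per group, this cannot tell whether libraries of like number shared a culture or batch, and the labels do not say. Of 285 called list members, 209 kept their call with any library left out and 194 of these also under median-ratio scaling. With TPM alone, counting error and depth limits cannot be given.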

Other observations

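Some genes called with FA had single libraries that crossed between the sides. They were picked after their values were seen, from the 12 largest differences in each direction among called genes with overlap and a group mean of at least 5 TPM, and some of those 12 that moved more are not described. Myl11, the regulatory light chain of fast skeletal myosin, stood at 12.6, 10.1 and 9.38 TPM with FA and 14.2, 13.5 and 8.5 TPM with MMA+FA, against 4.89, 9.46 and 5.1 TPM in control cells and 6.46, 4.63 and 6.91 TPM with MMA, with control replicate 2 above 2 of the libraries with FA (log2 difference 0.79, SE 0.16, adjusted p = 0.00537 in limma). Echdc2 stood at 38.7, 41.3 and 42.05 TPM with FA and 29.8, 30.3 and 28.6 TPM with MMA+FA, against 61.8, 62.8 and 64.4 TPM in control cells and 52.03, 50.9 and 39.1 TPM with MMA, with MMA replicate 3 below 2 of the FA libraries (log2 difference -0.64, SE 0.06, adjusted p = 5.86e-05). Cavin1, a coat protein gene of caveolae, stood at 58.6, 53.7 and 61.3 TPM with FA and 63.7, 73.04 and 78.2 TPM with MMA+FA, against 46.3, 46.7 and 38.5 TPM in control cells and 46.8, 42.3 and 56.5 TPM with MMA (log2 difference 0.48, SE 0.08, adjusted p = 0.00172). Among muscle genes Styxl2 rose by 0.49 (adjusted p = 0.00147).

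Of the 11 called genes that moved by at least 2-fold, 2 were higher and 9 lower, and 4 of the 11 had overlapping libraries. These 4 include LOC120102747, a small nucleolar RNA gene, and LOC120095478, a small nuclear RNA gene, which were listed at 0 in 2 and 4 of the 6 libraries with FA and in none of the 6 without. Poly(A) selection captures such RNAs poorly, so their values are given only as listed.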
